A study of Homo sapiens with 12 samples.

Results

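Expression of 10 secreted signalling genes of epithelial cells was followed: the chemokines CCL20, CXCL1, CXCL2, CXCL3, CXCL5, CXCL8 and CXCL16, the interleukin-1 genes IL1A and IL1B, and CSF2. They were taken by gene symbol, and all 10 were listed in both expression tables, among 16426 genes that the tables share. The material was a pair of established human lines of non-small cell lung cancer, NCI-H1975 and HCC827, both with activating mutations of EGFR, studied by RNA sequencing. Knockdown used siDYN-1 or siDYN-2, with 48 h stated for these samples, and siCON was the control siRNA in each line. The small molecule 18E was given to each line at 2.5 µM and at 5 µM, with 24 h stated for these samples and DMSO as their vehicle control. Each line and treatment had 1 library, 12 in all, so the 2 lines were the only replicates of a treatment and p-values measure how far these libraries disagreed.

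Levels are in FPKM, fragments counted per unit of transcript length and of library size, and sequencing depth could not be recovered from them. Library totals of FPKM ran from 486409 to 685680, and between 534 and 2212 genes were listed at 0. DYNC1LI1, the dynein light intermediate chain that the series title calls LIC1, stood at 7.49 to 21.5% of its siCON level in the 4 siDYN libraries. All 8 epithelial markers, EPCAM and keratins among them, were at 1 FPKM or more in all libraries. Of 6 leukocyte markers analysed, only CD14 and CSF1R reached 1 FPKM, and the markers summed to between 1.74 and 19.46 FPKM per library. Endothelial and fibroblast markers summed to at most 1.73 FPKM. In such bulk libraries, more expressing cells and more RNA per cell cannot be told apart.

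Chemokines are small secreted proteins that draw leukocytes along a gradient. CXCL1, CXCL2, CXCL3, CXCL5 and CXCL8 carry the ELR motif and attract neutrophils through CXCR2, CXCL8 also through CXCR1. CCL20 attracts CCR6-bearing lymphocytes and dendritic cells, and CXCL16 is a transmembrane ligand of CXCR6 that is shed from the cell surface. IL-1α and IL-1β act through IL1R1 with IL1RAP and switch on NF-kB, a transcription factor that in airway epithelium drives many of the same chemokine genes, and CSF2 encodes GM-CSF, a growth factor of granulocytes and macrophages. Several of these mRNAs are short-lived because of AU-rich elements.

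With knockdown, 7 of the 10 genes were higher than with siCON in all 4 siDYN libraries: CCL20, CXCL1, CXCL2, CXCL3, CXCL8, IL1A and CSF2. Of all 11718 genes tested, 24.9% were higher in all 4. On the log2(FPKM + 1) scale, CCL20 and CXCL1 were also at least 2-fold higher in all 4 libraries, which 0.23% of all genes were. The pattern was not shared by CXCL5, CXCL16 or IL1B, whose direction differed between libraries. The median change of the 10 genes was 1.19 on the log2(FPKM + 1) scale, beside 0.01 over all genes. Scaling the libraries to equal FPKM totals, which shifted the median change of all genes by up to -0.14 (siDYN-2 in NCI-H1975), and quantile normalization left the same 7 and the same 2 genes in these counts.

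None of these changes passed an adjusted p of 0.05 in the fit of both siRNAs and both lines (limma, cell line as block), a threshold that 0.0% of all genes passed. At an unadjusted p under 0.05, 7 of the 10 genes were higher, against 12.6% of all genes. Changes are given as treated minus control on the log2(FPKM + 1) scale, which understates those of low genes.

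The CC chemokine CCL20, at chromosome 2 in GRCh38, had the highest fitted change of the 10. It was listed at 41.06 FPKM with siDYN-1 and 72.31 FPKM with siDYN-2 in NCI-H1975, against 8.56 FPKM with siCON. The HCC827 values were 425.39 FPKM with siDYN-1 and 613.7 FPKM with siDYN-2, against 115.08 FPKM with siCON. Both siRNAs were above the control in both lines, by between 3.70 and 8.45-fold. The fitted change was 2.34 (SE 0.26, 95% interval 1.71 to 2.97, limma adjusted p = 0.0784), the 8th smallest p of all genes tested.

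CXCL1, a neutrophil attractant on chromosome 4, was listed at 2.69 and 2.47 FPKM with siDYN-1 and siDYN-2 in NCI-H1975, against 0.55 FPKM with siCON. The HCC827 libraries held 265.66 and 359.41 FPKM with siDYN-1 and siDYN-2, against 71.72 FPKM with siCON. The 4 folds lay between 3.70 and 5.01, although the lines differed in level by far more than that. The fitted change was 1.65 (SE 0.23, limma adjusted p = 0.0876).

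CXCL8, which encodes interleukin-8, was at 60.91 and 110.72 FPKM with siDYN-1 and siDYN-2 in NCI-H1975, against 26.32 FPKM with siCON. In HCC827 it stood at 175.44 and 659.24 FPKM with siDYN-1 and siDYN-2, against 118.2 FPKM with siCON. The siDYN-2 library was the higher of the siRNA pair in each line. Fitted over both siRNAs, the change was 1.56 (SE 0.50, limma adjusted p = 0.128).

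CXCL2 showed the same order of siRNAs. Its levels in NCI-H1975 were 11.84 and 24.7 FPKM with siDYN-1 and siDYN-2, against 5.84 FPKM with siCON. In HCC827 they were 51.48 and 134.38 FPKM, against 41.64 FPKM with siCON. The siDYN-1 library of HCC827 was thus only 1.24-fold above its control, and the fitted change was 1.20 (SE 0.42, limma adjusted p = 0.149).

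CXCL3 was lower in level than the other chromosome 4 chemokines in HCC827 but not in NCI-H1975. It was listed at 1.16 and 4.13 FPKM with siDYN-1 and siDYN-2 in NCI-H1975, against 0.77 FPKM with siCON, and the HCC827 libraries held 42.25 and 45.02 FPKM, against 13.73 FPKM with siCON. Its fitted change was 1.25 (SE 0.35, limma adjusted p = 0.108). Longest transcripts of CXCL1 and CXCL2 share 60 of the 1048 windows of 50 bases of CXCL1, and CXCL2 and CXCL3 share 54 of the 1169 windows of CXCL2, so reads from these stretches cannot be assigned to a single gene and these values are uncertain to that extent.

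CXCL5, a further ELR chemokine and the most abundant of the 10 genes in HCC827 with siCON, did not follow the others. In HCC827 it was listed at 924.22 FPKM with siDYN-1 and 372.92 FPKM with siDYN-2, against 629.82 FPKM with siCON. The siDYN-1 library was above the control and the siDYN-2 library below it. Levels in NCI-H1975 stayed under 1 FPKM, at 0.44 and 0.27 with siDYN-1 and siDYN-2 and 0.38 with siCON. The fitted change was -0.07 (SE 0.33, 95% interval -0.86 to 0.73, limma adjusted p = 0.916), and it was 0.22 without the siDYN-2 library of HCC827.

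CXCL16 differed between the siRNAs in the same way in both lines. NCI-H1975 had 2.69 FPKM with siDYN-1 and 8.19 FPKM with siDYN-2, against 3.89 FPKM with siCON. HCC827 had 34.82 FPKM with siDYN-1 and 87.8 FPKM with siDYN-2, against 40.42 FPKM with siCON. The siDYN-1 libraries were below the control and the siDYN-2 libraries 2.11 and 2.17-fold above it, and the fit over both gave 0.35 (SE 0.46, limma adjusted p = 0.65).

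The interleukin-1 genes went apart. IL1A, whose product is active without cleavage, was at 4.2 and 1.43 FPKM with siDYN-1 and siDYN-2 in NCI-H1975, against 1.06 FPKM with siCON. The HCC827 libraries listed IL1A at 12.75 and 22.88 FPKM with siDYN-1 and siDYN-2, against 4.98 FPKM with siCON. Its fitted change was 1.19 (SE 0.38, limma adjusted p = 0.125), and the siRNA with the higher level was siDYN-1 in NCI-H1975 and siDYN-2 in HCC827. IL1B, whose precursor is cleaved by caspase-1, was at 1.63 and 1.08 FPKM with siDYN-1 and siDYN-2 in NCI-H1975, against 2.63 FPKM with siCON. The HCC827 values of IL1B were 6.61 and 9.18 FPKM, against 7.46 FPKM with siCON. Its level was below the control in 3 of the 4 siDYN libraries, and its fitted change was -0.29 (SE 0.23, limma adjusted p = 0.441), or 0.06 without the siCON library of NCI-H1975.

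CSF2 was higher in all 4 libraries by a smaller factor, 1.36 to 2.30-fold. It was listed at 23.83 and 25.97 FPKM with siDYN-1 and siDYN-2 in NCI-H1975, against 17.57 FPKM with siCON. The HCC827 libraries held 62.96 and 92.07 FPKM, against 40.1 FPKM with siCON. The fitted change was 0.69 (SE 0.20, limma adjusted p = 0.110).

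**Figure D1:**
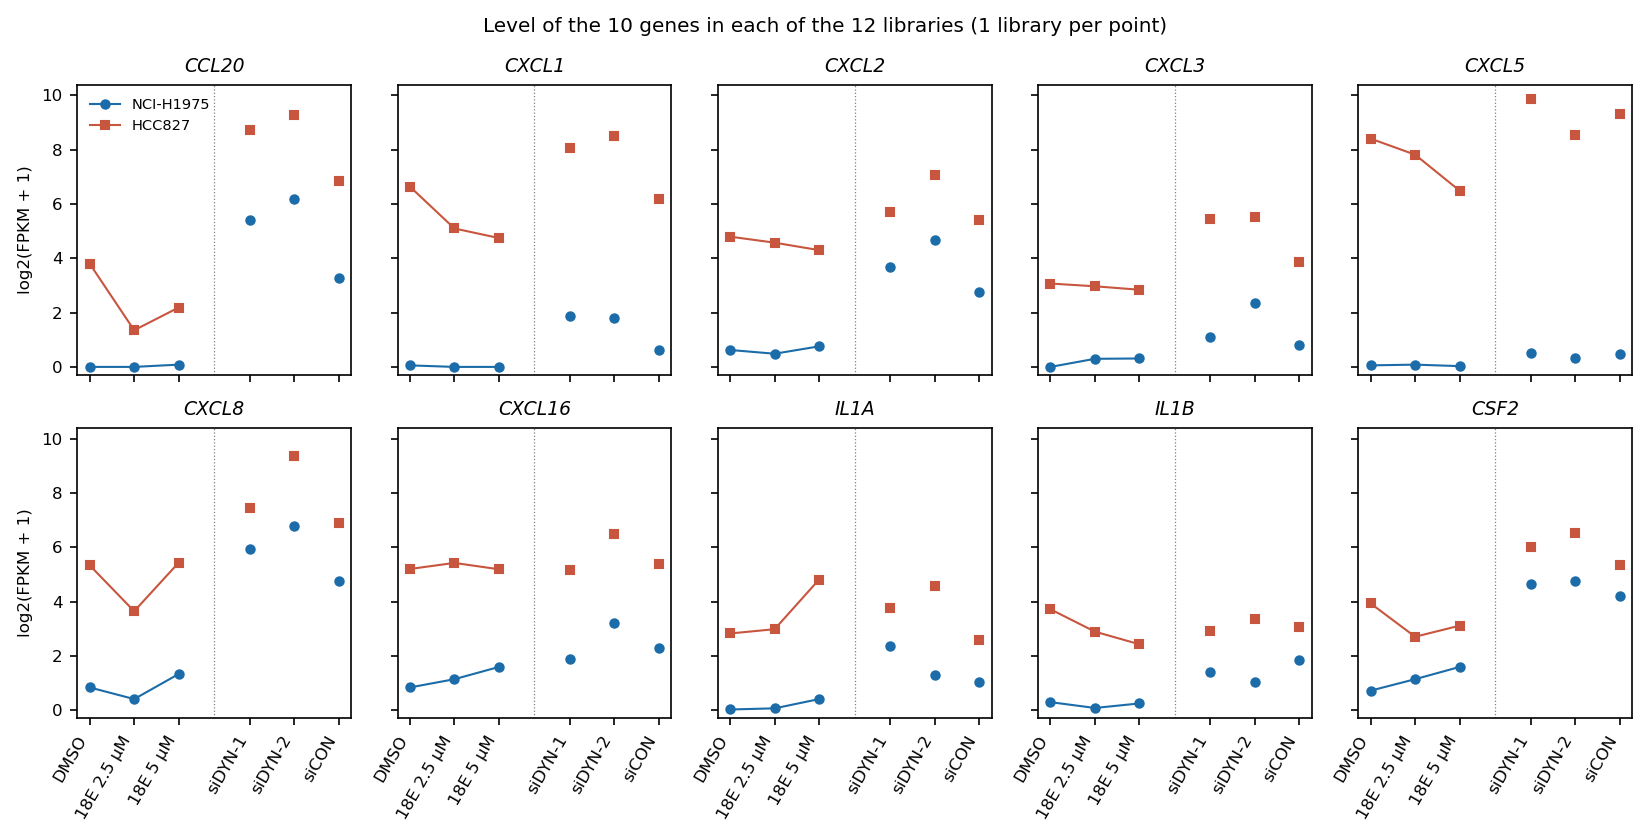
Level of each of the 10 genes in each of the 12 libraries, as log2(FPKM + 1), with 1 library per point and the lines in separate colours. Left of the dotted line is the 18E dose series, joined by lines from DMSO to 5 µM, and right of it are siDYN-1, siDYN-2 and siCON. CCL20 and CXCL1 sit above siCON with both siRNAs in both lines, and the HCC827 points sit above those of NCI-H1975 in each condition for each gene.

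**Figure D2:**
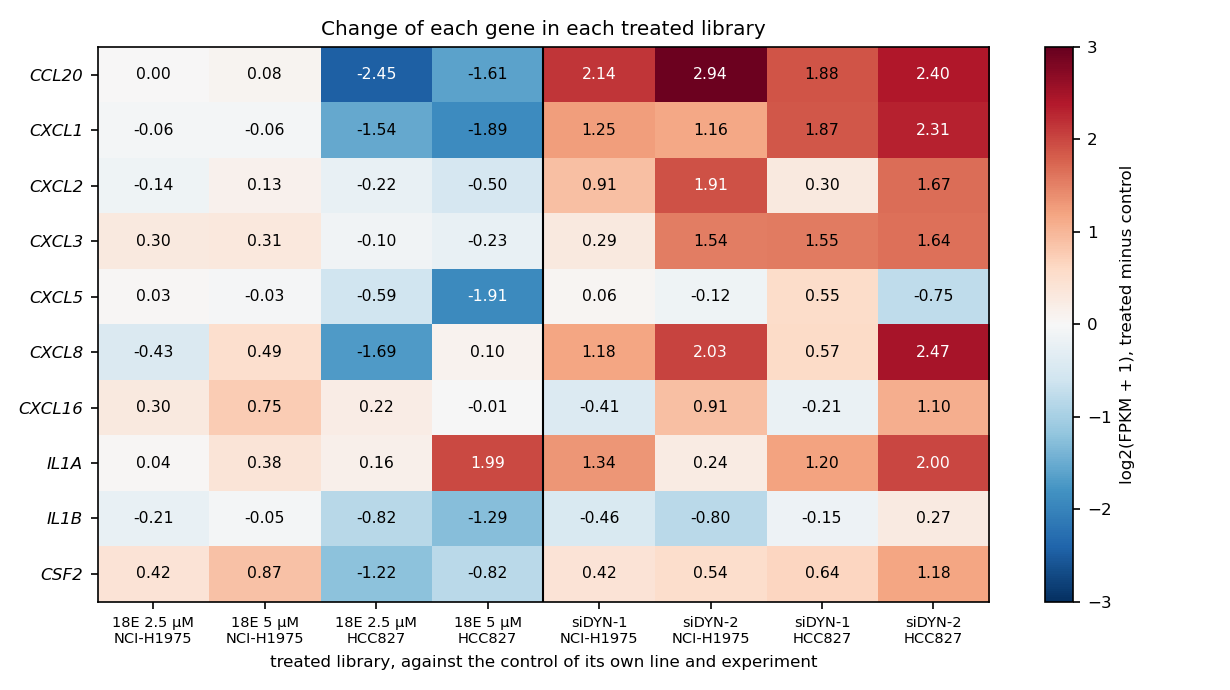
Change of each gene in each of the 8 treated libraries against the control of its own line and experiment, as a difference of log2(FPKM + 1). The largest positive value is 2.94 for CCL20 with siDYN-2 in NCI-H1975, and the lowest is -2.45 for CCL20 with 2.5 µM 18E in HCC827.

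By siRNA, the fits differed in how many of the genes passed. In a fit with a coefficient for each siRNA, 7 genes rose with siDYN-2 (limma adjusted p under 0.05), against 10.3% of all genes higher by that rule. These were CCL20 (2.67, adjusted p = 0.00574), CXCL8 (2.25, 0.0161), CXCL2 (1.79, 0.0142), CXCL1 (1.74, 0.0188), CXCL3 (1.59, 0.0266), CXCL16 (1.01, 0.0179) and CSF2 (0.86, 0.0290), each with its log2 change and limma adjusted p. With siDYN-1 CCL20 was the only one of the 10 that passed, having risen by 2.01 (limma adjusted p = 0.0406), where 0.384% of all genes were higher by the same rule. The difference between the siRNAs was not tested. DYNC1LI1 was at 12.8 and 7.49% of siCON with siDYN-2 and at 21.5 and 14.9% with siDYN-1, in NCI-H1975 and HCC827 in that order.

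Counted by library on the log2(FPKM + 1) scale, with no test, the siDYN-2 library of HCC827 had 8 of the 10 genes at least 2-fold higher, all but CXCL5 and IL1B, against 3.78% of all genes. In the siDYN-2 library of NCI-H1975 the 5 past 2-fold on this scale were CCL20, CXCL1, CXCL2, CXCL3 and CXCL8, against 4.73% of all genes. The siDYN-1 library of NCI-H1975 had CCL20, CXCL1, CXCL8 and IL1A past 2-fold, against 2.35% of all genes. The siDYN-1 library of HCC827 had CCL20, CXCL1, CXCL3 and IL1A, against 1.23% of all genes. On this scale no gene of the 10 was at least 2-fold lower in any of the 4 libraries, against 1.21% (siDYN-1) and 4.05% (siDYN-2) of all genes in NCI-H1975 and 0.734% and 1.19% in HCC827. The added 1 FPKM holds back low genes. As plain ratios of FPKM, CXCL2 with siDYN-1 (2.03-fold) and CXCL16 with siDYN-2 (2.11-fold) in NCI-H1975 were also past 2-fold, and IL1B with siDYN-2 in NCI-H1975 was at 41.1% of siCON. With a pseudocount of 0.1 the siDYN-1 and siDYN-2 libraries of NCI-H1975 had 5 and 6 genes at least 2-fold higher, and the siDYN-2 library had 1 at least 2-fold lower.

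**Figure D3:**
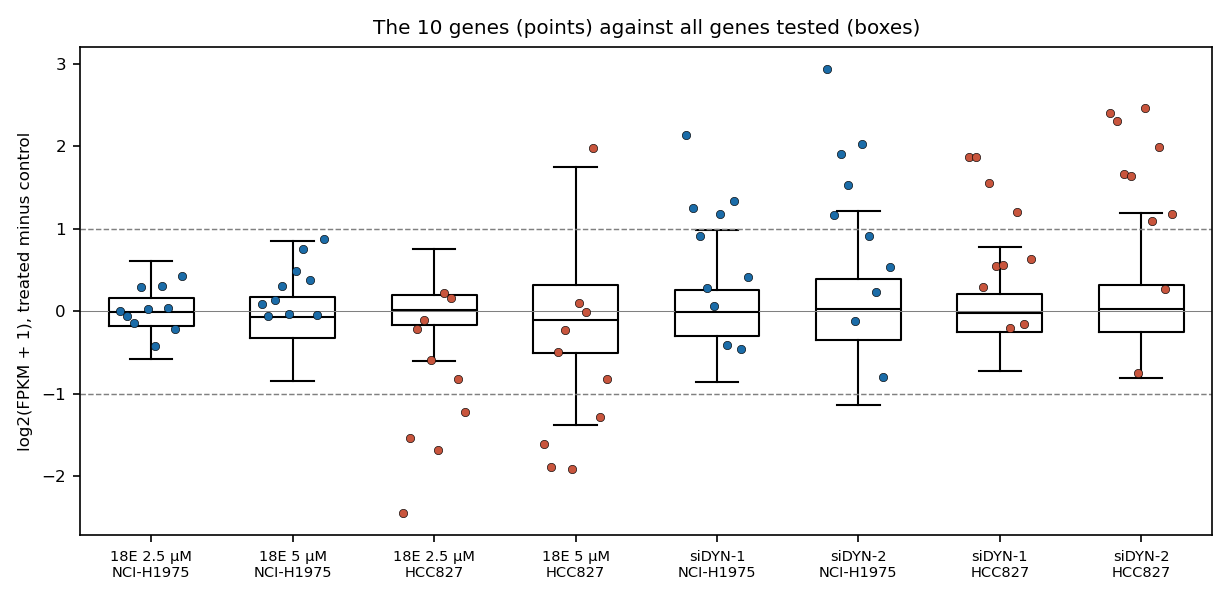
Changes of the 10 genes in each treated library (points) over boxes of all genes tested. Boxes span the middle 50% of genes with the median line, whiskers run from the 2.5th to the 97.5th percentile, and dashed lines mark a 2-fold change. In the siDYN-2 library of HCC827, 8 points lie above the upper dashed line.

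Summed over the 10 genes, NCI-H1975 had 150.45 and 251.27 FPKM with siDYN-1 and siDYN-2, against 67.57 FPKM with siCON. HCC827 had 2001.6 and 2396.6 FPKM with siDYN-1 and siDYN-2, against 1083.2 FPKM with siCON. CXCL8 was the most abundant of the 10 in all 3 NCI-H1975 libraries, whereas in HCC827 it was CXCL5 with siDYN-1 and siCON and CXCL8 with siDYN-2. Of 8 epithelial markers, 6 (EPCAM, KRT8, KRT18, KRT19, CDH1 and NKX2-1) were lower than with siCON in all 4 siDYN libraries, against 25.6% of all genes. Summed over all 8, the epithelial markers were at 6118.6 and 6351.7 FPKM with siDYN-1 and siDYN-2 in NCI-H1975, against 6479.2 FPKM with siCON, and at 9069.2 and 8081.4 FPKM in HCC827, against 10195 FPKM with siCON. The leukocyte markers summed to 18.42 and 17.86 FPKM in the NCI-H1975 siDYN libraries, against 19.46 FPKM with siCON, and to 1.74 and 2.72 FPKM in HCC827, against 2.75 FPKM with siCON. The leukocyte sums were thus lower with knockdown in both lines, though barely so with siDYN-2 in HCC827. Their markers did not move together. CD14 was lower than with siCON in all 4 siDYN libraries, as were 25.6% of all genes. CSF1R was higher in all 4, as were 24.9% of all genes. The part of the epithelial markers in the result was not tested.

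Leaving out single libraries moved the fitted changes. Without the siDYN-1 library of HCC827 they were 2.48 for CCL20, 1.68 for CXCL1 and 1.98 for CXCL8. With all libraries they were 2.34, 1.65 and 1.56 in the same order. The count of all genes that passed also moved with the library left out, as given in the closing section. Over all 15 settings tried, the limma adjusted p of CCL20 ran from 0.00574 to 0.760, the highest being the fit without the cell line block, and its change from 2.01 to 2.67. That of CXCL1 ran from 0.0188 to 0.961 and that of CXCL8 from 0.0161 to 0.775.

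No difference between the lines in response to knockdown was called. None of the 10 genes differed between lines at an unadjusted p under 0.05 in the interaction test (limma, adjusted p = 0.9999 for all 10), where 1.52% of all genes did. In this test the siRNAs stood in for replicates within a line. The smallest unadjusted p was that of CXCL1. On the log2(FPKM + 1) scale its change was higher in HCC827 than in NCI-H1975 by 0.88 (95% interval -0.04 to 1.81). The added 1 FPKM holds back CXCL1 in NCI-H1975, where it was at 0.55 FPKM with siCON. As plain ratios, siDYN-1 and siDYN-2 were 4.89 and 4.49-fold above siCON in NCI-H1975 and 3.70 and 5.01-fold above it in HCC827.

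Promoters are shown for the genes in which a match to the NF-kB consensus was found, because 4 of these 5 were among those higher with knockdown and the other, CXCL5, was not. No match was found for CXCL8, IL1A and CSF2, which were also higher in all 4 siDYN libraries, nor for IL1B, which was not. RefSeq promoters on GRCh38.p14 were available for 9 of the 10 genes, in 10 entries because IL1A has 2, and the 250 bases before the start site were searched on both strands. NF-kB matches were found in 5 of the 10 entries, against 5.21% of 35116 promoter windows of this length. Around the match the CXCL1, CXCL2 and CXCL3 sequences resemble each other, so these entries are not independent. The windows are chr2:227813592-227813841 on the plus strand for CCL20, chr4:73869143-73869392 on the plus strand for CXCL1, chr4:74099196-74099445 on the minus strand for CXCL2, chr4:74038690-74038939 on the minus strand for CXCL3 and chr4:73998678-73998927 on the minus strand for CXCL5. Each is written 5′ to 3′ in the direction of the gene, with the NF-kB match in capitals.
CCL20: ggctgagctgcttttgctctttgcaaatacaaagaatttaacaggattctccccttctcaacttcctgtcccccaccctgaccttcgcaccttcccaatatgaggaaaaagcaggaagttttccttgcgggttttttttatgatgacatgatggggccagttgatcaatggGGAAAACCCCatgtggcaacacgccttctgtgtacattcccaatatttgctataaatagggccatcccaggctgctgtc
CXCL1: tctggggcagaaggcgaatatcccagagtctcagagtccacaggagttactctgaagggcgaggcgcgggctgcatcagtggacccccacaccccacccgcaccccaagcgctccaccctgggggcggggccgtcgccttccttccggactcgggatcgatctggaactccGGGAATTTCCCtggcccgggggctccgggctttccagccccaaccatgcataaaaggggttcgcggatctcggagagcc
CXCL2: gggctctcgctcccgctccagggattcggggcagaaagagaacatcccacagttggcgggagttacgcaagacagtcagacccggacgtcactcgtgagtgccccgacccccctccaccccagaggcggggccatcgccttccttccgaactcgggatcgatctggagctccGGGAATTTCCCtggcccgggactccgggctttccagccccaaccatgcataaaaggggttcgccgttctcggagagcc
CXCL3: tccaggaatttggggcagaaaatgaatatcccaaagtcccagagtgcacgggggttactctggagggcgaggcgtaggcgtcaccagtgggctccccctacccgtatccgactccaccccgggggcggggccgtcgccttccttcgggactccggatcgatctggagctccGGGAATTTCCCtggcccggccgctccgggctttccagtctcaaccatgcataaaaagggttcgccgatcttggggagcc
CXCL5: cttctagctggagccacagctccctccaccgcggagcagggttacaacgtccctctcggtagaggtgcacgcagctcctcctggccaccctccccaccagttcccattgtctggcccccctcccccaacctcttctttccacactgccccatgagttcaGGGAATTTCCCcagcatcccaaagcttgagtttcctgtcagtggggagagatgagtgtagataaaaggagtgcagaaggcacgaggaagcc

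The capitals of CXCL1 and CXCL3 lie at -79 to -69 from the start, those of CXCL2 at -78 to -68 and those of CXCL5 at -91 to -81, and each of these 4 matches reads on both strands. The CCL20 match lies at -79 to -70 and reads on the strand opposite to the gene. The AP-1 motif TGANTCA was found in both IL1A entries and at -137 to -131 in CXCL8, that is in 3 of 10 entries against 6.57% of all windows. The CRE core TGACG, searched on both strands, was in 5 of 10 entries, against 21.2% of all windows. The IL1A windows overlap, so an AP-1 site and a CRE core of IL1A are counted in both of its entries. A match is a run of letters and not a measured binding site. RefSeq and GENCODE 29 place the starts of CCL20, CXCL2, CXCL3 and CXCL5 differently. The whole CCL20 window and parts of the other 3 lie within the GENCODE genes.

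The 5 ELR chemokine genes lie within 358.8 kb of chromosome 4 in GENCODE 29 on GRCh38. CXCL8 (chr4:73740506-73743716) and CXCL1 (chr4:73869393-73871242) are on the plus strand. CXCL5 (chr4:73995642-73998779), CXCL3 (chr4:74036589-74038807) and CXCL2 (chr4:74097035-74099293) are on the minus strand. CXCL8, CXCL1, CXCL3 and CXCL2 were higher in all 4 siDYN libraries, and CXCL5, which lies between CXCL1 and CXCL3, was not. IL1A (chr2:112773915-112784590) and IL1B (chr2:112829751-112836903) are also neighbours, both on the minus strand of chromosome 2, and had fitted changes of opposite sign with knockdown.

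The compound gave another picture, and the lines differed in how much could be seen. In NCI-H1975 with DMSO none of the 10 genes reached 1 FPKM, whereas all 10 did in HCC827. Summed over the 10 genes, HCC827 had 591.48 FPKM with DMSO, 361.18 FPKM at 2.5 µM and 260.2 FPKM at 5 µM. NCI-H1975 had 3.1, 3.55 and 7.09 FPKM in the same order. With DMSO, CXCL5 and CXCL1 had the highest levels of the 10 genes in HCC827, and both were lower at each dose.

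At 5 µM none of the 10 genes passed (limma adjusted p under 0.05), where 0.00837% of all genes did, and at an unadjusted p under 0.05 IL1A alone was higher, against 10.0% of all genes. At 2.5 µM none passed either, where 0.0% of all genes did, and CXCL8 alone was lower at an unadjusted p under 0.05, against 2.01%. The median change of the 10 genes was -0.08 at 5 µM, beside -0.09 over all genes, and -0.34 at 2.5 µM, beside 0.00 over all genes.

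In HCC827, 7 of the 10 genes were lower than with DMSO at both doses, against 36.0% of all genes, and CCL20 and CXCL1 were at least 2-fold lower at both, against 0.418%. Equal totals and quantile normalization left the same genes in both counts. CCL20 was listed at 12.92 FPKM with DMSO, 1.55 FPKM at 2.5 µM and 3.55 FPKM at 5 µM. CXCL1 was at 98.56 FPKM with DMSO, 33.24 FPKM at 2.5 µM and 25.85 FPKM at 5 µM. At both doses these genes, the pair past 2-fold in all 4 siDYN libraries, stood at 12.0 to 33.7% of their DMSO level. In NCI-H1975 CCL20 was at 0, 0 and 0.06 FPKM and CXCL1 at 0.04, 0 and 0 FPKM from DMSO to 5 µM, where a lower value could hardly be listed. The fitted changes at 5 µM were -0.76 for CCL20 (SE 0.55, limma adjusted p = 0.397) and -0.97 for CXCL1 (SE 0.44, limma adjusted p = 0.220). Without the DMSO library of HCC827 that of CCL20 was 0.27.

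CXCL5 in HCC827 had a lower level at each higher dose, 338.06 FPKM with DMSO, 224.32 FPKM at 2.5 µM and 88.95 FPKM at 5 µM. In NCI-H1975 it was at 0.04, 0.06 and 0.02 FPKM. Its fitted change at 5 µM was -0.97 (SE 0.43, limma adjusted p = 0.215). IL1B in HCC827 was at 12.17 FPKM with DMSO, 6.44 FPKM at 2.5 µM and 4.39 FPKM at 5 µM, the same order of levels. NCI-H1975 listed IL1B at 0.23, 0.06 and 0.19 FPKM, and its fitted change at 5 µM was -0.67 (SE 0.31, limma adjusted p = 0.229).

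IL1A went the opposite way to IL1B. It was at 6.1 FPKM with DMSO, 6.92 FPKM at 2.5 µM and 27.15 FPKM at 5 µM in HCC827, and at 0.02, 0.05 and 0.33 FPKM in NCI-H1975. It was the only one of the 10 genes above DMSO in all 4 18E libraries, against 17.8% of all genes, while CXCL1 and IL1B were the only ones below it in all 4, against 23.8%. Under quantile normalization CXCL16 was also above DMSO in all 4. The fitted change was 1.19 at 5 µM (SE 0.41, limma adjusted p = 0.153) and 0.10 at 2.5 µM (SE 0.41, limma adjusted p = 0.986). Between the doses, the 5 µM libraries were higher than the 2.5 µM libraries by 1.09 (SE 0.41, limma adjusted p = 0.411).

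CXCL8 did not follow the dose. HCC827 listed it at 39.39 FPKM with DMSO, 11.53 FPKM at 2.5 µM and 42.22 FPKM at 5 µM. NCI-H1975 had 0.79, 0.33 and 1.52 FPKM in the same order, so the 2.5 µM library was the lowest and the 5 µM library the highest in both lines. The fitted change was -1.06 at 2.5 µM (SE 0.31, unadjusted p = 0.0165, limma adjusted p = 0.915) and 0.30 at 5 µM (SE 0.31, limma adjusted p = 0.562), the second being -0.12 without the DMSO library of NCI-H1975. The 5 µM libraries exceeded those at 2.5 µM by 1.35 (SE 0.31, unadjusted p = 0.00576, limma adjusted p = 0.411), and CXCL8 and IL1A were the 2 genes of the 10 higher at an unadjusted p under 0.05 in that comparison, against 3.71% of all genes.

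CSF2 differed in direction between the lines. In HCC827 it was at 14.26 FPKM with DMSO, 5.53 FPKM at 2.5 µM and 7.66 FPKM at 5 µM. In NCI-H1975 it was at 0.65, 1.21 and 2.02 FPKM, with a fitted change over both lines of 0.03 at 5 µM (SE 0.44), which was -0.06 with equal FPKM totals. CXCL16 was listed in NCI-H1975 at the same 1.21 and 2.02 FPKM after 0.79 FPKM with DMSO. CXCL16 in HCC827 changed little, with 35.84, 41.99 and 35.56 FPKM. Its fitted change at 5 µM was 0.37 (95% interval -0.22 to 0.96).

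CXCL2 and CXCL3 were slightly lower than DMSO at both doses in HCC827. CXCL2 was at 26.78 FPKM with DMSO, 22.83 FPKM at 2.5 µM and 18.7 FPKM at 5 µM. CXCL3 was at 7.4, 6.83 and 6.17 FPKM in the same order. The corresponding values in NCI-H1975 were 0.54, 0.4 and 0.69 FPKM for CXCL2 and 0, 0.23 and 0.24 FPKM for CXCL3. Intervals of the fitted changes at 5 µM ran from -0.72 to 0.36 for CXCL2 and from -0.47 to 0.55 for CXCL3, and changes within these bounds could not be detected with these libraries. Their fitted changes of -0.18 and 0.04 changed sign under alternatives, that of CXCL2 to 0.11 without the 5 µM library of HCC827 and that of CXCL3 to -0.01 with equal FPKM totals.

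**Figure D4:**
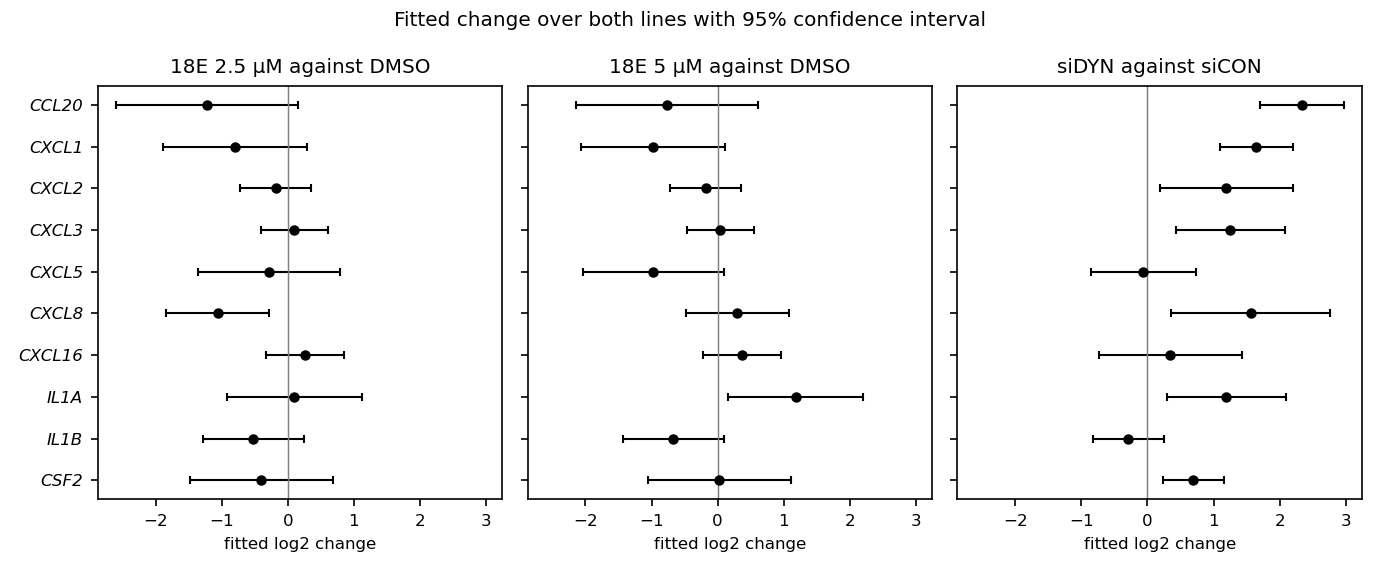
Fitted change of each gene over both lines, on the log2(FPKM + 1) scale, with its 95% confidence interval from limma (unadjusted), for 2.5 µM 18E, 5 µM 18E and siDYN against their controls. With siDYN the intervals of CCL20, CXCL1, CXCL2, CXCL3, CXCL8, IL1A and CSF2 lie above 0, and with 5 µM 18E the interval of IL1A does.

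Read by library on the log2(FPKM + 1) scale without a test, 2.5 µM in HCC827 had CCL20, CXCL1, CXCL8 and CSF2 at least 2-fold lower, 4 of the 10 genes against 0.502% of all genes. At 5 µM in HCC827 the 4 were CCL20, CXCL1, CXCL5 and IL1B, against 7.24% of all genes, and IL1A was at least 2-fold higher, against 7.4%. On the log2(FPKM + 1) scale no gene of the 10 was past 2-fold in NCI-H1975 at either dose, where 0.678% of all genes were higher and 0.251% lower at 2.5 µM and 1.78% higher and 1.13% lower at 5 µM. These levels were too low for that scale to show much. As plain ratios CSF2, CXCL16 and IL1A were at 3.11, 2.56 and 16.5-fold of DMSO at 5 µM, and IL1A at 2.5-fold at 2.5 µM. CXCL8 and IL1B were at 41.8 and 26.1% of DMSO at 2.5 µM, CXCL5 at 50% at 5 µM and CXCL1 at 0 at both doses. With DMSO, IL1A, CXCL5 and CXCL1 were at only 0.02, 0.04 and 0.04 FPKM. CCL20 and CXCL3 have no ratio because DMSO was at 0. With a pseudocount of 0.1 there were 4 genes higher and 0 lower at 5 µM and 1 higher and 2 lower at 2.5 µM.

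The difference between the lines in response to 18E was tested with the doses standing in for replicates. No member passed (limma adjusted p = 0.999), as 0.0% of the 11953 genes tested did. The change of CSF2 was lower in HCC827 than in NCI-H1975 (difference -1.67, SE 0.47, unadjusted p = 0.0150). For CCL20 and CXCL1 nothing is read from the test, because both were at or under 0.06 FPKM in all 3 NCI-H1975 libraries and could not have been listed lower there.

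Leaving out single libraries moved the fitted changes with 18E. One such fit was without the 5 µM library of NCI-H1975, which leaves HCC827 alone at that dose. There the changes at 5 µM were 1.96 for IL1A, -1.76 for CXCL5, -1.14 for IL1B and -1.52 for CXCL1. Without the 5 µM library of HCC827 instead, they were 0.41, -0.18, -0.20 and -0.43 in the same order. Without the DMSO library of NCI-H1975, CCL20 and CXCL1 both changed by -1.80 at 5 µM, and CCL20 by -2.26 at 2.5 µM. Without the DMSO library of HCC827 instead, CCL20 changed by 0.27 and CXCL1 by -0.14 at 5 µM, and CCL20 by -0.19 at 2.5 µM. For 5 µM relative to 2.5 µM, the changes without the 5 µM library of NCI-H1975 were 1.86 for IL1A and 1.47 for CXCL8. Without the 5 µM library of HCC827 they were 0.31 for IL1A and 1.24 for CXCL8. Each value is a log2 change, and because these fits leave 1 library in a group, only the changes are given here. In such fits the lone library is assumed to vary like the others.

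Set side by side, the changes of CCL20 in HCC827 were 1.88 and 2.40 with siDYN-1 and siDYN-2 and -2.45 and -1.61 with 2.5 and 5 µM 18E. Those of CXCL1 were 1.87 and 2.31 with the siRNAs and -1.54 and -1.89 with 18E. IL1A had 1.20 and 2.00 with the siRNAs and 0.16 and 1.99 with 18E. DYNC1LI1 itself was at 13.62 FPKM with DMSO, 13.08 FPKM at 2.5 µM and 25.03 FPKM at 5 µM in HCC827, and at 21.35, 26.54 and 29.43 FPKM in NCI-H1975. The experiments differ in agent, time and control, so the values are given without a test.

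The chemokine receptors of these ligands were low in both lines. CCR6, CXCR1, CXCR2 and CXCR6 were under 1 FPKM in all 12 libraries. IL1R1, the signalling receptor of IL-1, was at 2.28 to 6.25 FPKM, and IL1R2, a decoy receptor, was at 0.26 and 0.25 FPKM with siDYN-1 and siDYN-2 in NCI-H1975, against 0.04 FPKM with siCON, and at 1.92 and 2.08 FPKM in HCC827, against 0.69 FPKM with siCON. IL1RAP, the co-receptor, was lower than its control in all 8 treated libraries. Its level was 14.03 and 5.43 FPKM with siDYN-1 and siDYN-2 in NCI-H1975, against 14.75 FPKM with siCON. CSF2RA, the receptor chain that binds GM-CSF, was at 2.29 and 5.41 FPKM with siDYN-1 and siDYN-2 in HCC827, against 1.24 FPKM with siCON, and at 0.63 and 1.3 FPKM in NCI-H1975, against 0.73 FPKM with siCON.

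Of 19 NF-kB feedback and target genes tested, 9 were higher in all 4 siDYN libraries and 2 were lower, against 24.9% and 25.6% of all genes, and none passed adjustment in limma. The mitochondrial superoxide dismutase SOD2 was at 206.2 and 206.98 FPKM with siDYN-1 and siDYN-2 in NCI-H1975, against 65.98 FPKM with siCON. For HCC827 the values were 260.11 and 662.1 FPKM, against 161.18 FPKM with siCON, and its 4 changes ran from 0.69 to 2.03 (SE of the fitted change 0.34, limma adjusted p = 0.0981). With 18E, 6 of the 19 were higher in all 4 libraries and 4 were lower, against 17.8% and 23.8% of all genes, and the median of the list at 5 µM was 0.05. NFKBIB, an inhibitor of NF-kB, was at 14.48 FPKM with DMSO, 18.22 FPKM at 2.5 µM and 29.01 FPKM at 5 µM in HCC827, and at 7.9, 12.97 and 16.76 FPKM in NCI-H1975.

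AP-1 and ATF transcription factors were the list with the highest median at 5 µM 18E, 0.91, and 8 of 12 were higher in all 4 18E libraries, against 17.8% of all genes. With siDYN the median was 0.35, and 5 of 11 were higher in all 4 libraries, against 24.9% of all genes. DDIT3, which encodes the stress factor CHOP, was past 2-fold in all 8 treated libraries. Its fitted change was 3.69 at 5 µM (SE 0.31, limma adjusted p = 0.0844) and 1.84 with siDYN (SE 0.47, limma adjusted p = 0.104). ATF3 was at 6.48 FPKM with DMSO, 42.76 FPKM at 2.5 µM and 433.7 FPKM at 5 µM in HCC827, the same libraries in which CCL20 and CXCL1 were lower.

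Other epithelial cytokines had a median of 0.68 at 5 µM, where the 10 genes had -0.08, and 6 of 10 were higher in all 4 18E libraries, against 17.8% of all genes. IL11, an IL-6 family cytokine, was at 1.14 FPKM with DMSO, 2.84 FPKM at 2.5 µM and 7.87 FPKM at 5 µM in HCC827. In NCI-H1975 it was at 4.03, 14.21 and 34.58 FPKM, and its fitted change at 5 µM was 2.44 (SE 0.24, limma adjusted p = 0.0901). It was also above siCON in all 4 siDYN libraries, with a fitted change of 1.14 (SE 0.30, limma adjusted p = 0.106). With siDYN, 4 of 11 cytokines tested were higher in all 4 libraries, against 24.9% of all genes, and the median was 0.32.

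Of 5 other chemokines tested with siDYN, CX3CL1, CCL2 and CCL5 were higher in all 4 libraries, against 24.9% of all genes. CCL5, an attractant of T cells and monocytes, was at 18.77 and 19.61 FPKM with siDYN-1 and siDYN-2 in NCI-H1975, against 3.72 FPKM with siCON. HCC827 had 2.68 and 11.24 FPKM, against 2.16 FPKM with siCON. The eosinophil attractant CCL26 was above DMSO at both doses of 18E in both lines, at 0.6, 2.96 and 13.86 FPKM from DMSO to 5 µM in HCC827 and 5.78, 8.42 and 16.85 FPKM in NCI-H1975. CXCL6, another ELR gene of the list, was at or under 0.18 FPKM in all libraries.

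Among 12 genes of the IL-1 family and IL-1 handling, 5 were higher in all 4 siDYN libraries, against 24.9% of all genes. The 2 lower in all 4 were the proteases ADAM10 and ADAM17, against 25.6% of all genes. The median of the list was 0.25. CASP4, an inflammatory caspase, was at 76.68 and 68.08 FPKM with siDYN-1 and siDYN-2 in NCI-H1975, against 43.51 FPKM with siCON. In HCC827 it was at 121.92 and 146.1 FPKM, against 95.09 FPKM with siCON. With 18E, 2 of 12, IL18 and ADAM17, were higher and 1, the IL-36 receptor antagonist IL36RN, was lower in all 4 libraries. These shares were at or under the 17.8% and 23.8% of all genes.

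Of 7 factors of mRNA binding and decay, 1 was higher and 3 were lower in all 4 siDYN libraries, against 24.9% and 25.6% of all genes. The higher one was ZC3H12A, which is not an AU-rich binding factor. HNRNPD, which binds AU-rich mRNAs and can promote their decay, was at 103.25 and 86.81 FPKM with siDYN-1 and siDYN-2 in NCI-H1975, against 134.07 FPKM with siCON. In HCC827 it was at 83.79 and 83.7 FPKM, against 130.3 FPKM with siCON. Its fitted change was -0.56 with siDYN (SE 0.13, limma adjusted p = 0.101) and -0.40 at 5 µM 18E (SE 0.14, limma adjusted p = 0.152).

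**Figure D5:**
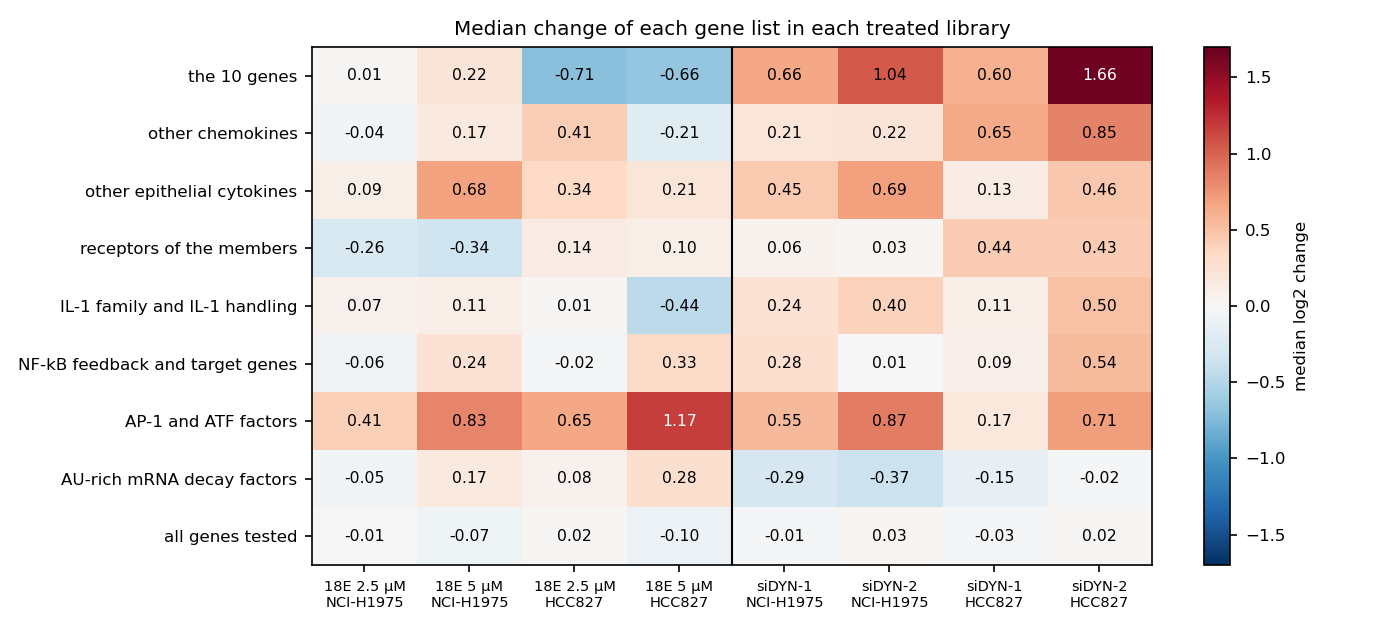
Median change on the log2(FPKM + 1) scale of the 10 genes, of 7 other gene lists and of all genes tested, in each of the 8 treated libraries. The 10 genes have the highest list median in each siDYN library except those of HCC827 with siDYN-1, and the lowest in both 18E libraries of HCC827.

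Genes most like each member were taken as those with the smallest root mean square difference of the 8 changes, among 11449 genes tested in both experiments. For CCL20 these were HLA-DRA (0.74) and CD74 (0.85), and for CXCL1 they were CD74 (0.50) and HLA-B (0.51), given as that difference on the log2 scale. SOD2 (0.61) was the nearest to CXCL8. IER3 (0.48) was the nearest to IL1A, PALM3 (0.19) to CXCL5, TTYH3 (0.20) to IL1B, FAM216A (0.23) to CXCL2, MACROD1 (0.35) to CXCL3, MYL12A (0.27) to CXCL16 and ADCK5 (0.40) to CSF2. A gene with small changes finds a near neighbour more easily than one with large changes, so these distances are not compared between members.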

How the data were processed

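RNA was sequenced in 12 libraries of NCI-H1975 and HCC827, 6 in each experiment. The authors deposited FPKM values with 2 decimals, per the file headers, in 1 table for each experiment. Per the submitters' processing notes, the tool Bowtie 0.12.2 and the builds GRCh38.p12 and mm8 (mouse) are listed, with no step assigned to any. How FPKM was computed, with which annotation, and whether strand was used is not given in the sources used here. Of 16800 and 17462 lines in the 18E and siRNA tables, 16760 and 17442 were complete genes, and the other 40 and 20 were left out. Low values showed no steps of whole reads, so depth is unknown.

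Values were transformed to log2(FPKM + 1), and a gene was tested if 2 of the 6 libraries of an experiment reached 1 FPKM (11953 for 18E, 11718 for siDYN), all 10 members among them. The tests were moderated linear models (limma 3.58.1, R 4.3.3) with a variance trend, two-sided, cell line as block (the same line in each treatment, from the labels), and Benjamini-Hochberg adjustment over all genes with a threshold of 0.05. Residual degrees of freedom were 2 for 18E and 3 for both siRNAs together. They were also 2 for the fit with a coefficient for each siRNA and for the differences between lines. The code was tested on simulated data. Nothing in the labels says that a line was cultured more than once, so the spread may be technical. Single libraries have no test and were counted at 2-fold. Tables were fitted separately, and levels were not compared across them.

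The members and lists were chosen with earlier results of these data known. All members were named; from the other lists, genes past 2-fold one way in every treated library of an experiment, or else the gene with the largest smallest change, and the 2 genes most like each member. Further list genes (IL1R1, CSF2RA, the low receptors, CX3CL1, CCL2, CXCL6, IL18, ADAM10, ADAM17) were named after their values were seen. Promoters come from RefSeq (GRCh38.p14) and gene positions from GENCODE 29 (GRCh38), which may differ from the authors' annotation.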

Additional observations from a re-analysis of the deposited data

Results flagged for a closer look

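CSF2 and CXCL3 stood out because they went in opposite directions in the lines with 18E. CSF2 was lower than DMSO at both doses in HCC827 and higher at both in NCI-H1975, and the difference between lines in its change was -1.67 (HCC827 minus NCI-H1975, SE 0.47, unadjusted p = 0.0150, limma adjusted p = 0.999). For CXCL3, also lower at both doses in HCC827, it was -0.47 (SE 0.32, limma adjusted p = 0.999), but CXCL3 was at 0, 0.23 and 0.24 FPKM in NCI-H1975 from DMSO to 5 µM, so its direction there rests on values near 0. CSF2 was at 0.65 to 2.02 FPKM in NCI-H1975. Neither difference passed the adjusted threshold.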

How the results depend on the processing

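At 5 µM 18E, 1 gene passed in the whole table. The count was 16 with a pseudocount of 0.1 and 0 without the filter on low values, with equal FPKM totals, with quantile normalization, without the variance trend and without the cell line block. It ran from 34 to 4520 when 1 library was left out. At 2.5 µM it was 0, and 0 to 26 with a library left out. For 5 against 2.5 µM it was 0, and 0 to 3478. With siDYN it was 0 for both siRNAs together, 82 for siDYN-1 alone, 2124 for siDYN-2 alone and 0 to 128 with a library left out. The difference between lines with siDYN had 0 genes, and 1 with a pseudocount of 0.1. Apart from that 1 gene at 5 µM, fits without the cell line block changed no call, and no member passed in them. The cause of these differences was not tested, beyond the fewer samples of the fits that leave a library out.

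Among the members' changes, 401 results under alternatives kept direction and side of the threshold, 20 passed in addition and 19 changed sign. With equal FPKM totals CXCL3 (-0.0073) and CSF2 (-0.056) did so at 5 µM, and with siDYN-1 alone CXCL5 (0.31) and CXCL16 (-0.31). The rest came from leaving out a library. At 5 µM the ranges were -0.19 to 0.28 for CXCL3, -0.81 to 0.86 for CSF2, -0.12 to 0.71 for CXCL8, -0.47 to 0.11 for CXCL2 and -1.80 to 0.27 for CCL20. At 2.5 µM they were -0.33 to 0.53 for IL1A, -0.14 to 0.33 for CXCL3, -1.63 to 0.031 for CXCL1, -0.91 to 0.34 for CXCL5 and -1.24 to 0.43 for CSF2. With siDYN they were -0.34 to 0.22 for CXCL5 and -0.63 to 0.057 for IL1B. The depth behind each value is unknown, and low levels such as those of NCI-H1975 with 18E limit what could be seen.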
